A study of Solanum lycopersicum with 9 samples.

Results

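A set of 38 genes, of 23028 listed, stood higher in guard cells of tomato with a DELLA gain of function than in every library of the other plants, while their mean level with DELLA loss of function stayed near that of the parent cultivar. The genes were chosen from normalized counts, that is, reads per gene divided by one factor per library. The choice had 3 conditions. The lowest of the 3 pro17 values had to be at least 1.5 times the highest of the 6 other values, the mean pro17 value at least 50, and the mean of pro over that of M82 (1 added to each) between 0.67 and 1.5. PROCERA and 2 other loci were left out in advance, and none of these 3 loci met the conditions.

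In the nucleus, DELLA proteins hold back responses to the hormone gibberellin. When gibberellin binds its receptor, the complex captures DELLA, which is then marked for degradation, so that genes held back by DELLA are released. In guard cells, the paired epidermal cells around the stomatal pore, DELLA activity in tomato is linked to closure of the pore and to lower water loss. DELLA also acts with transcription factors to raise transcripts, among them those of genes that make or sense gibberellin.

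Messenger RNA was sequenced from epidermal peels of blended, fully expanded leaves, with 3 libraries for each of 3 genotypes, all in the cultivar M82, which carries sp. M82 without a further allele is the parent, pro is a loss-of-function mutant of the DELLA gene PROCERA, and pro17 plants express the gain-of-function form pro∆17. The promoter that drives pro∆17, the number of independent lines, the age of the plants and any watering treatment are not given in the labels. Nor do the labels state whether the 3 libraries of a genotype are from different plants, and p-values measure only how these libraries vary, which may be technical variation.

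Each library held 14826561 to 20445679 reads over the listed genes. PROCERA itself (Solyc11g011260) read 3754 to 3934 normalized counts in M82, 2851 to 4507 in pro and 5486 to 7448 in pro17. Its values therefore separate pro17 from the other genotypes but not pro from M82, and whether reads of pro∆17 count at this locus was not tested. The 3 loci taken as guard cell markers were all read in every library, with a summed level of 3807 to 4410 in M82, 3185 to 5385 in pro and 3888 to 4289 in pro17. The 31 listed loci of light harvesting and Rubisco, abundant in other leaf cells, summed to 690110 to 839974 in M82, 368793 to 976153 in pro and 655789 to 710743 in pro17. None of the 31 was at 0 throughout. In all pro17 libraries 0 of the 31 lay higher than in the other 6 (beside 5.55% of all listed genes) and 1 lay lower (beside 4.61%), and their part in the levels of the 38 genes was not tested. In bulk RNA a change in the share of a cell type and a change in RNA per cell cannot be told apart. Both marker lists were drawn up by identifier from general knowledge. The deposited table pairs no names with its identifiers, and the gene table at hand (RefSeq, assembly SLM_r2.1) matched 0 of 23028, so the 38 genes carry identifiers but no functions here.

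All 38 genes lay above the other 6 libraries by construction, a separation that 5.55% of all listed genes showed. Their mean pro17 level ran from 51.9 to 3503 normalized counts with a median of 209.7, against a median of 80.5 in M82 and 71.4 in pro. Normalized counts are not corrected for gene length, so levels are compared between libraries and not between genes. The ratio of the lowest pro17 value to the highest other value, called the margin here, had a median of 1.65 over the 37 genes with a read in M82 or pro. The lowest pro17 value was at least 2 times the highest other value at 8 genes and at least 4 times at 4 of them. On the scale of log2(normalized count + 1), the difference of pro17 from M82 had a median of 1.35 and that of pro17 from pro a median of 1.56, beside medians of -0.01 and 0.01 over the 16808 genes with a mean pro17 of at least 50. These differences chose the genes and are given without a test.

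**Figure D1:**
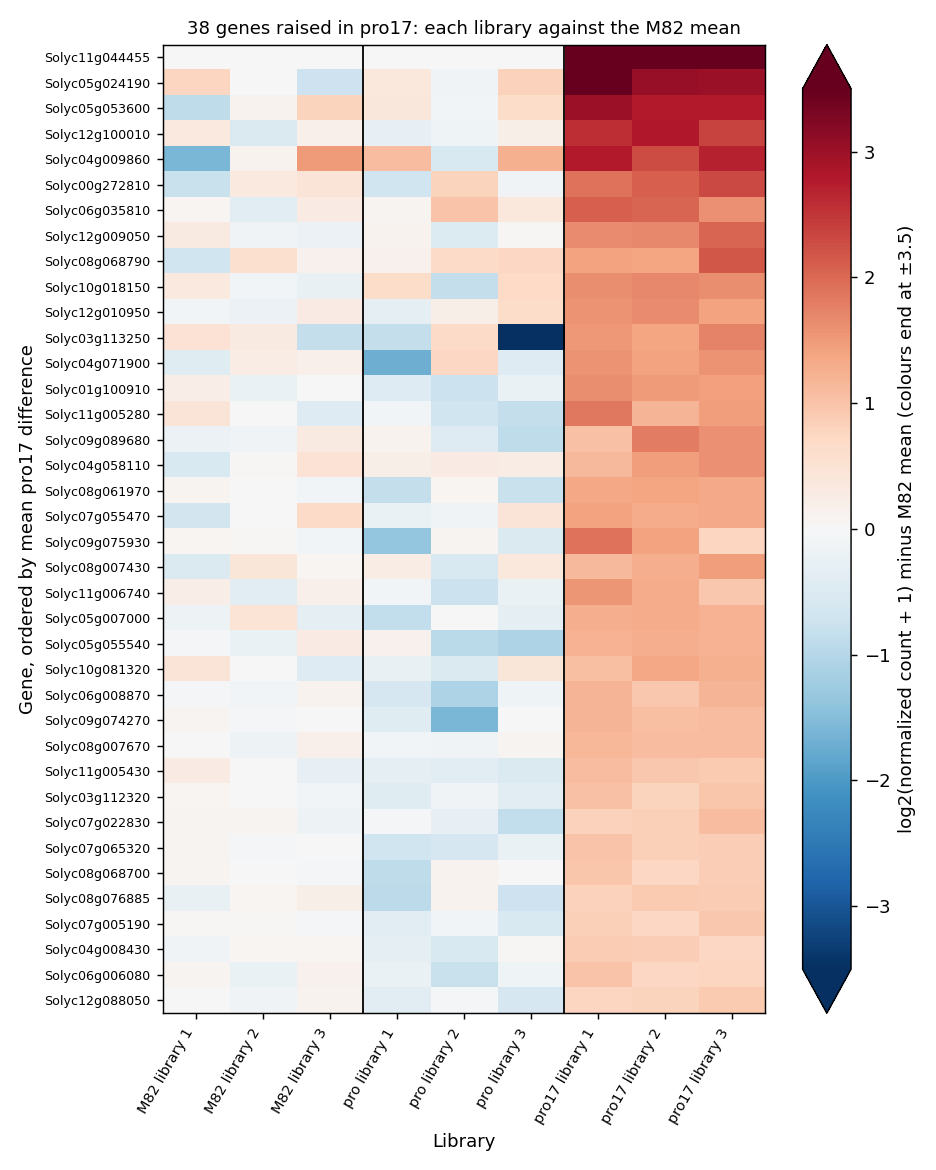
Each row is one of the 38 genes, each column a library, and colour is log2(normalized count + 1) minus the M82 mean of that gene, with colours ending at ±3.5. All pro17 columns are above the M82 mean, from a mean difference of 0.82 to one of 6.13, while the pro columns vary from gene to gene, with pro library 3 of Solyc03g113250 the deepest value below M82. The 6.13 is at Solyc11g044455, with 0 reads in M82 and pro, and depends on the 1 added. It ran from 3.88 to 9.43 over the settings tried.

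A single gene was read in pro17 alone. Solyc11g044455 had 0 reads in all M82 and pro libraries and stood at 64.3, 80.8 and 62.8 normalized counts in the pro17 libraries, from 209 reads in all. Against a floor of 3 reads over the group, it was at least 68.8-fold higher than in M82 and at least 72.2-fold higher than in pro, where the floor covers counting error only. It was the only gene with a mean pro17 of at least 50, of 16808, without a read in any M82 or pro library. Its identifier places it on chromosome 11, which also carries PROCERA.

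A further 3 genes had margins above 4. Solyc05g024190 read 17.1, 9.81 and 5.54 in the M82 libraries, 13, 8.90 and 17.9 in pro, and 133, 88.9 and 86.9 in pro17. Solyc12g100010 read 24, 12.8 and 21.2 in M82, 15, 16.8 and 21.5 in pro, and 116, 137 and 100.2 in pro17. Solyc05g053600 read 9.14, 19.6 and 31.4 in M82, 24, 16.8 and 28.7 in pro, and 151, 128 and 128 in pro17. In all of them M82 and pro covered one common low range, and the pro17 libraries stood well clear of it. The mean pro17 level was 8.79 times the M82 mean at Solyc05g024190, 6.48 times at Solyc05g053600 and 5.85 times at Solyc12g100010, with 1 added to each mean. Over the M82 libraries these values rest on 31, 62 and 57 reads.

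The margins of 4 more genes lay between 2 and 4. Solyc12g009050 stood at 18.4 ± 3.88 in M82, 17.2 ± 3.83 in pro and 65.6 ± 10.1 in pro17 (mean ± SD, n = 3 libraries here and below). Solyc00g272810, whose identifier belongs to the unplaced sequences, stood at 19.9 ± 8.40, 20.2 ± 11.2 and 83.7 ± 12.3. At both, pro and M82 differed by far less than their SD. The pair with higher counts had pro means below those of M82. Solyc01g100910 read 199, 143 and 173 in M82, 124, 101 and 143 in pro, and 524, 476 and 460 in pro17. Solyc08g061970 read 318, 291 and 278 in M82, 164, 308 and 173 in pro, and 750, 767 and 747 in pro17, the tightest pro17 values of the set (SD 1.44% of the mean). At each of them 2 of the 3 pro values were below every M82 value, and the other one lay within the M82 range.

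**Figure D2:**
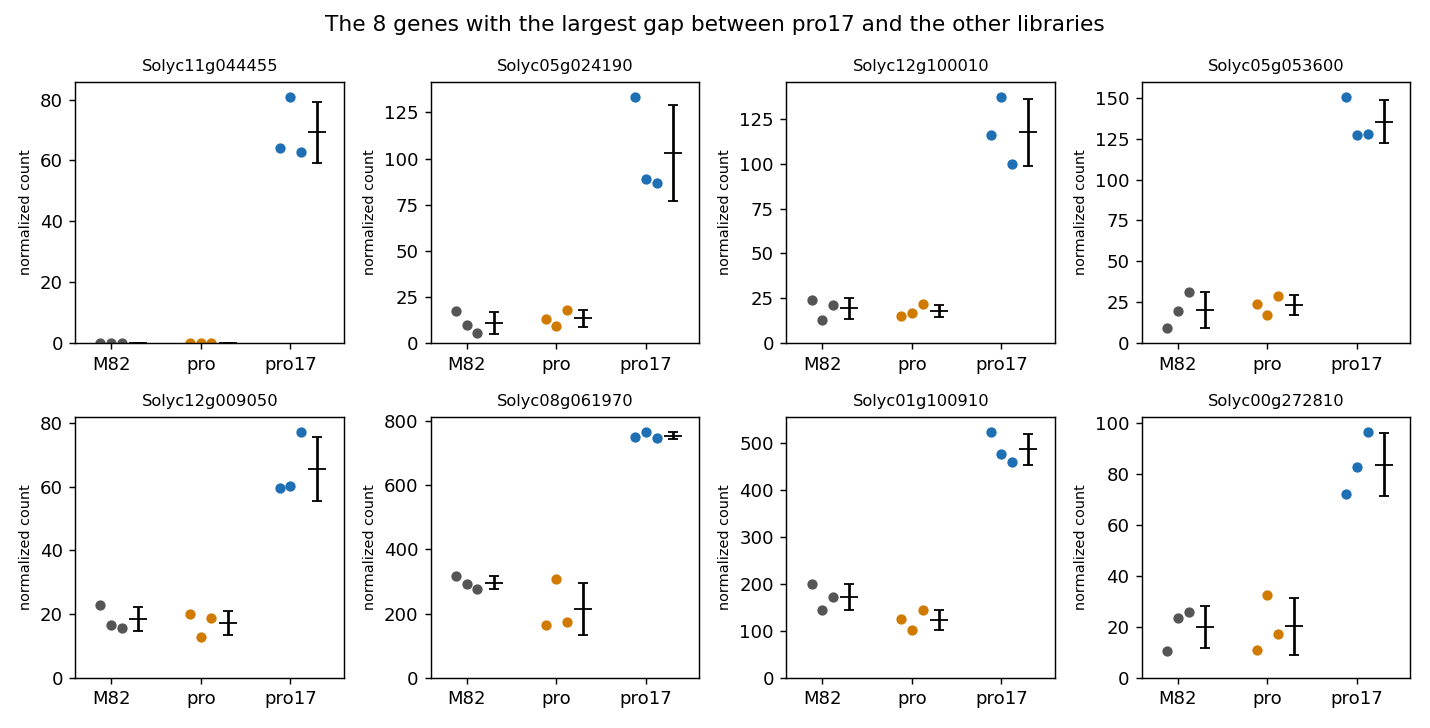
Normalized counts of the 8 genes with the largest margins; points are libraries and the bar beside them is the mean with its SD (n = 3). M82 and pro overlap in every panel, and pro17 lies above both, from 62.8 to 80.8 at Solyc11g044455, where the others are at 0, to 747 to 767 at Solyc08g061970.

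The 8 genes with the most counts in pro17 include Solyc08g061970. Their ratios of mean pro17 to mean M82, with 1 added to each, ran from 1.77 to 2.80, and 6 of them lay below the median of 2.48 over the 38 genes. Solyc07g065320 read 2008, 1782 and 1860 in M82, 1160, 1252 and 1588 in pro, and 3763, 3330 and 3416 in pro17. Solyc06g006080 stood at 1677 ± 231 in M82, 1299 ± 283 in pro and 2966 ± 290 in pro17, and with a margin of 1.501 it only just entered the set. Solyc03g112320 read 1267, 1200 and 1129 in M82, 895, 1089 and 912 in pro, and 2443, 2045 and 2353 in pro17. At Solyc07g065320 and Solyc03g112320 the 3 groups did not overlap at all, with pro lowest, M82 between and pro17 highest. The ratio of means of pro17 to M82 was 1.86 at Solyc07g065320, 1.77 at Solyc06g006080 and 1.90 at Solyc03g112320.

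Among the rest of these 8 genes, the pro libraries spread widely. Solyc08g076885 stood at 693 ± 105 in M82, 508 ± 207 in pro and 1249 ± 47.2 in pro17, and Solyc08g068700 at 646 ± 33.8, 564 ± 190 and 1176 ± 100.2. Solyc07g022830 stood at 446 ± 44.2, 343 ± 90.3 and 835 ± 96.1. Solyc04g071900 read 179, 291 and 273 in M82, 74.0, 398 and 176 in pro, and 722, 649 and 719 in pro17. Its pro libraries thus reached from below to above the whole M82 range, with library 2 high and library 1 low.

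Of the 14 loci drawn up by identifier, without a check against an annotation, as gibberellin genes, 13 were listed, 12 tested and 2 belong to the set. Solyc06g008870 read 283, 273 and 319 in M82, 195, 137 and 263 in pro, and 667, 565 and 665 in pro17. Solyc09g074270 read 208, 184 and 194 in M82, 144, 64.2 and 192 in pro, and 444, 406 and 416 in pro17. Their ratios of pro17 to M82 were close to each other, at 2.16 and 2.15. They also sat at the lower end of the window, with pro over M82 of 0.682 and 0.684, and at Solyc06g008870 every pro value was below every M82 value. Over the whole list, all pro17 values were above the other 6 at 7 of 13 loci and below them at 0. The 7 include both genes of the set, which meet this by construction, and PROCERA, the gene whose gain-of-function form pro17 plants express. Of the 10 loci without these, 4 lay above (beside 5.55% of all listed genes) and 0 below (beside 4.61%). The 4 are Solyc03g006880, Solyc03g119910, Solyc06g035530 and Solyc11g072310. The last, a locus left out in advance, had low counts: 0, 0 and 2.77 in M82, 0, 0 and 14.3 in pro, and a mean of 23.5 in pro17. By limma's test, adjusted over all genes, 0 of the 12 tested loci were called in pro17 against M82 (0.119% of all genes in either direction), and 4 were called higher and 1 lower in pro17 against pro (2.19% and 1.21% of all genes). Both genes of the set are among the 4 called higher, from the values that chose them, and the others are Solyc03g006880 and Solyc03g119910. The locus called lower is Solyc07g056670, with a mean of 119.5 in pro and 23.5 in pro17. The list was drawn up with earlier results of these data known, so these counts are a description. Of the 7 loci drawn up in the same way for abscisic acid, the hormone that closes stomata, 0 belong to the set. All pro17 values were above the other 6 at 1 of the 7 (beside 5.55% of all listed genes) and below them at 0. That locus, Solyc05g006990, had a margin of 2.01, and its pro over M82 of 0.443 put it outside the window.

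Although the set is defined by a mean pro level near that of M82, its pro levels leaned low. The mean of pro was below that of M82 at 27 of 38 genes (71.1%), beside 48.7% of all genes with a mean pro17 of at least 50, and below 0.8 of it at 18 genes (47.4%, beside 13.8%). All pro values were below all M82 values at 5 genes, and above them at 0. The first pattern held for 4.24% of the 16808 genes and the second for 4.19%. The 5 genes are Solyc03g112320, Solyc07g065320, Solyc06g008870, Solyc07g005190 and Solyc11g005430, the last 2 named after their values were seen. Their ratios of mean pro to mean M82, with 1 added to each, ran from 0.682 at Solyc06g008870 to 0.806 at Solyc03g112320. For these genes the description as raised by DELLA gain alone rests on the window, which bounds that ratio in advance. It does not hold for the order of the libraries. The condition on the mean ratio, and the requirement that pro17 exceed every pro value, both use these values, so they are a description and no test.

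In limma's test of pro against M82, 0 of the 38 genes passed an adjusted p of 0.05, as did 0 with edgeR and 0 with DESeq2 on recovered reads (0.21%, 0.181% and 0.875% of all genes tested). At an unadjusted p under 0.05, limma had 5 of the 38 and edgeR and DESeq2 4 each, all lower in pro. Over all genes, 4.25%, 3.59% and 3.88% were lower in pro at that level with limma, edgeR and DESeq2. With replicate numbers fitted as a block over all 9 libraries, those of pro17 included, 0 of the 38 passed limma's adjusted threshold (0.162% of all genes did). In that fit 8 were lower in pro and 0 higher at an unadjusted p under 0.05 (6.02% of all genes were lower). Within same-numbered libraries, pro was lower than M82 in all 3 pairs at 13 of the 38 genes (beside 15.9% of genes with a mean pro17 of at least 50) and higher in all 3 at 2 (beside 16.5%). No label states that same-numbered libraries are pairs, and the pairing was assumed from these data. Without pro library 2, limma called 2 of the 38 genes lower in pro. They are Solyc08g061970 with a log2 difference of -0.81 (adjusted p = 0.0175) and Solyc08g076885 with -0.82 (adjusted p = 0.0279). Of the 20951 genes tested, this omission called 766, of which 605 were lower in pro, beside 44 and 28 with all libraries. The window, and the requirement that pro17 exceed every pro and M82 value, chose the 38 genes from these same values. Their counts in these fits are therefore a description and add no support. A p that misses the threshold does not show that pro and M82 are alike.

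At its lower end, the window on pro over M82 cuts through a continuous spread. Without the window, 95 genes met the other conditions. Of the 57 genes outside the window, 54 had a pro over M82 ratio below 0.67 and 3 a ratio above 1.5. Just inside the lower end lay Solyc11g005280 (0.680) and Solyc06g008870 (0.682), and just outside it Solyc02g062890 (0.661) and Solyc03g095310 (0.657). At the upper end, Solyc06g035810 (1.43) and Solyc08g068790 (1.36) were inside, and Solyc10g045240 (1.82) and Solyc09g064742 (2.06) outside. For the margin, Solyc06g006080 (1.501) and Solyc08g068700 (1.52) were inside, and Solyc10g007505 and Solyc07g018290 (1.48 each) outside. For the mean of pro17, Solyc10g081320 (51.9) and Solyc10g018150 (54.9) were inside, and Solyc02g065090 (47.7) and Solyc05g055290 (42.2) outside. With the window narrowed at both ends, from 0.8 to 5/4, 18 genes remained.

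**Figure D3:**
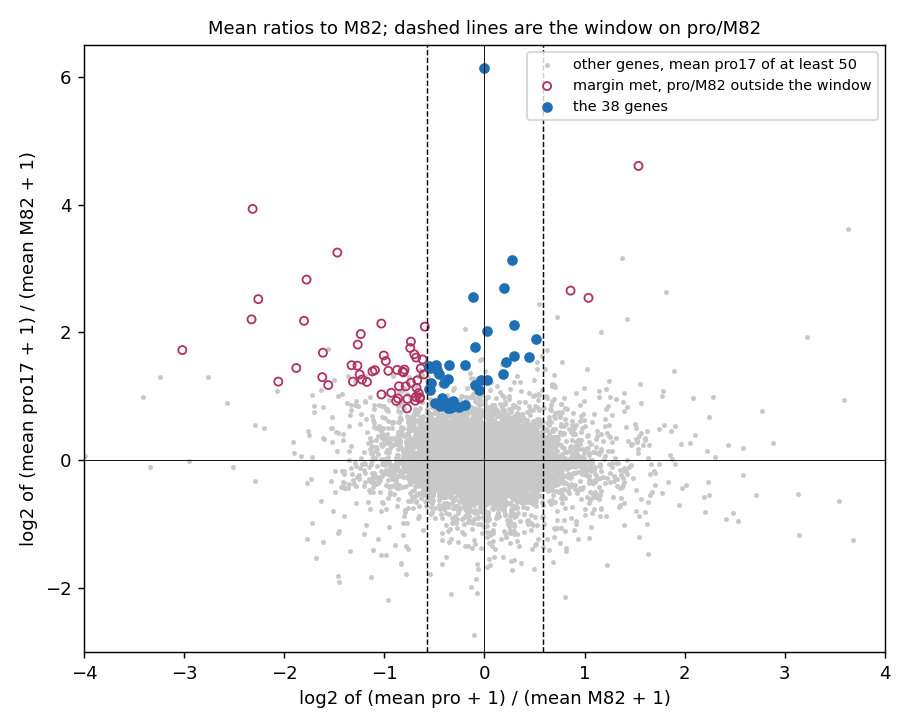
Each point is a gene with a mean pro17 of at least 50; the x axis is log2 of pro over M82 and the y axis log2 of pro17 over M82, from group means plus 1, and 10 genes lie outside the axes. The 38 genes (filled) lie between the dashed lines of the window, 27 of them left of 0, and 54 of the 57 open circles, which meet the margin but not the window, lie further left.

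With the same conditions and the groups exchanged, 16 genes stood out in pro alone and 2 in M82 alone, and the mirrored conditions gave 36 genes lower in pro17 alone. The spread within groups differed, and its part in these counts was not tested. The SD as a share of the mean had a median of 9.47% in pro17 over the 38 genes, 20.53% in M82 and 30.03% in pro. Over all genes with a mean pro17 of at least 50 the medians were 8.32%, 12.7% and 22.2%. Those genes had higher levels, with a median of mean M82 of 438.9 beside 80.5 over the 38. The part of level in the spread was not tested.

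The pro17 libraries of the set were close together at most genes. At 2 genes the SD exceeded 30% of the mean. Solyc09g075930 read 28.6, 27.5 and 24.9 in M82, 9.99, 28.7 and 18.8 in pro, and 103, 72.8 and 45.9 in pro17, so that pro17 library 3 set the margin of 1.60. At Solyc08g068790 the pro17 values were 206, 201.2 and 350. The tightest pro17 values after Solyc08g061970 were at Solyc05g007000, with 72.9, 74.6 and 71.2, beside 26.3, 42.2 and 23.99 in M82 and 15.99, 29.6 and 23.3 in pro. M82 exceeded an SD of 30% of the mean at 13 genes (34.2%, beside 10.8% of all genes with a mean pro17 of at least 50) and pro at 19 (beside 34.9%).

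The library that stood highest among the 6 of M82 and pro was M82 library 1 at 13 genes and M82 library 3 at 12, pro library 2 at 6, pro library 3 at 4 and M82 library 2 at 2. It was pro library 1 at 0 genes, and 1 gene had no read in any of the 6. Over all genes with a mean pro17 of at least 50, pro library 3 was the highest of the 6 at 34.6%, more often than any other. M82 libraries 1, 2 and 3 were highest at 14.6%, 10.3% and 9.2% (34.2%, 5.26% and 31.6% of the 38). For pro libraries 1 and 2 the shares were 11.1% and 20.2% (0% and 15.8% of the 38). The conditions on the 38 genes use these values, and their part in the differences was not tested. The widest pro values of the set were at Solyc03g113250, with 46.0, 133 and 3.58 in pro, 118, 104 and 46.1 in M82 and 237, 216 and 279 in pro17. This gene was named after its values were seen.

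Leaving out one library at a time shows what the choice rests on. Chosen on the other 8 libraries, 54 genes met the conditions without pro17 library 1, and in that unused library 39 of them (72.2%) were again at least 1.5 times the highest M82 or pro value. For pro17 library 2 the share was 37 of 62 genes (59.7%), and for pro17 library 3 it was 38 of 46 (82.6%). The same level was reached in these libraries by 1.5%, 0.97% and 1.27% of all genes with a mean of at least 50 in the other pro17 libraries. The unused library was at least above all 6 values at 50 of 54, 62 of 62 and 45 of 46 of the chosen genes. Of the same background genes, 13.1%, 13.9% and 12.9% were above all 6 values. The M82 and pro values are the same in the choice and in the check, so the check is new for pro17 alone. Of the genes chosen, 38, 37 and 38 belong to the set and pass by its definition. The background genes were not chosen for low M82 and pro values, so the shares are a description and add no support.

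The number of genes in the set depended on single libraries. It was 61 without M82 library 1, 74 without M82 library 3, 68 without pro library 3 and 62 without pro17 library 2, and 35 to 54 without each of the others. Under all 9 omissions, 18 of the 38 genes met the conditions every time. A margin of 5/4 gave 151 genes and a margin of 2 gave 8.

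In the tests across all genes, which use the same contrasts as the choice and so add no support, limma called 6 of the 38 genes in pro17 against M82 (0.0811% of all genes tested were called higher) and 29 in pro17 against pro (2.19%). The 6 are Solyc11g044455, Solyc05g024190, Solyc12g100010, Solyc01g100910, Solyc08g007670 and Solyc03g112320. Solyc08g007670 read 186, 166 and 211 in M82, 174, 170 and 200 in pro, and 421, 393 and 396 in pro17, and was named for being among the 6. The first count was 30 with DESeq2 (0.856% of all genes). It was 33 when only the M82 and pro17 libraries were fitted, and 2 when replicate numbers were fitted as a block. Over all genes, these fits called 250 and 7 higher, beside 17 in the main fit. Without pro library 1, 2 and 3 the first count was 2, 16 and 16, beside 12, 55 and 107 of all genes called higher. Without M82 library 1, 2 and 3 it was 4, 1 and 1, beside 14, 2 and 2. Without pro17 library 1, 2 and 3 it was 1 each time, beside 2, 3 and 1. The second count fell to 9, 12 and 11 without pro17 library 1, 2 and 3 and to 19 with only the 6 libraries compared. Over all genes, these fits called 101, 115, 116 and 183 higher, beside 459 in the main fit. In the authors' deposited table, 36 of the 38 genes have an adjusted p under 0.05 with a higher level for pro17 against pro (4.05% of genes listed). The columns of that table for pro17 against M82 were not used. Of its 290 genes with an adjusted p under 0.05 there and a mean of at least 5 in both groups, 141 carry a log2 fold change more than 0.1 away from the log2 ratio of the normalized means in the same row, and 19 of these belong to the set. In the authors' deposited table this was so at 0 of 1664 genes for pro17 against pro.

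The identifiers give a chromosome and a number along it. The 38 genes were spread over 11 of the 12 chromosomes and the unplaced sequences. Chromosome 8 carried 6 (15.8%, beside 7.25% of genes with a mean pro17 of at least 50), chromosomes 4, 5, 7, 11 and 12 carried 4 each, chromosome 1 carried 1 (2.63%, beside 12.7%) and chromosome 2 carried 0 (beside 10.5%). No 2 genes of the set had locus numbers within 50 of each other. The closest were Solyc08g068700 and Solyc08g068790, with 4 listed genes between them.

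The listed neighbours of the 38 genes took no part in the choice, and their levels are given as a description without a test. Of 76 neighbours, the nearest listed gene on each side, 10 had all pro17 values above all M82 and pro values (13.2%, beside 5.55% of all listed genes), and 9 of these were among the 54 at a locus number no more than 10 away. Their median log2 difference between pro17 and M82 was 0.12. The pairs with the largest margins were named after their values were seen. Solyc05g007000 lies beside Solyc05g006990, a locus of the abscisic acid list, which read 625, 635 and 515 in M82, 242, 370 and 173 in pro, and 1403, 1278 and 1476 in pro17. Next to Solyc05g024190, Solyc05g024230 read 15.99, 4.91 and 14.8 in M82, 18.0, 5.93 and 73.5 in pro, and 131, 108 and 106 in pro17. At this pair the pro17 values were alike and library 3 of pro was high at the neighbour alone.

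A further 2 groups lay side by side. Solyc08g076890, next to Solyc08g076885, stood at 2563 ± 368 in M82, 1722 ± 455 in pro and 4449 ± 245 in pro17. Solyc01g100910 had neighbours on both sides that were highest in pro17. Solyc01g100900 stood at 1041 ± 60.1, 583 ± 114 and 1622 ± 311, and Solyc01g100920 at 423 ± 129, 349 ± 153 and 816 ± 146. At Solyc01g100900 all pro values were below all M82 values, which was not so at Solyc01g100910. Neither the strand setting of the counts nor the gene models were at hand, so reads of overlapping or antisense neighbours cannot be told apart from those of the genes themselves.

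**Figure D4:**
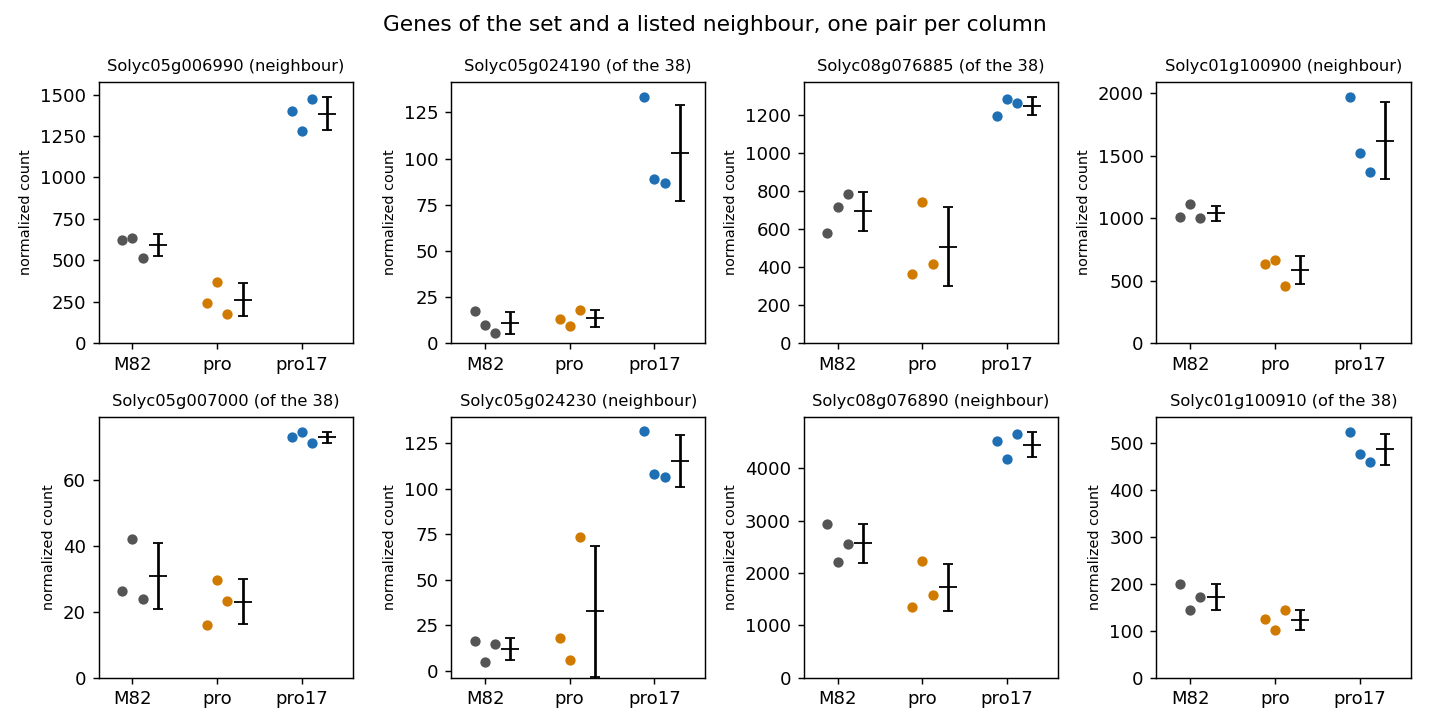
Normalized counts of 4 pairs of listed neighbours, one pair per column, with the gene of the set and its neighbour marked in the titles; points are libraries and bars the mean with its SD (n = 3). In each panel the pro17 libraries are the highest, and the vertical scale differs between the genes of a pair, as for Solyc05g006990 (1278 to 1476 in pro17) and Solyc05g007000 (71.2 to 74.6).

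The remaining genes of the set had margins of 1.53 to 1.93 and fall by their pro level. Those with a pro mean within 10% of M82 were Solyc07g055470, Solyc08g007430 and Solyc10g081320. Solyc07g055470 stood at 167 ± 74.7 in M82, 163 ± 44.1 in pro and 399.8 ± 16.7 in pro17, Solyc08g007430 at 114 ± 36.4, 116 ± 35.9 and 272 ± 31.8, and Solyc10g081320 at 22.3 ± 7.03, 20.8 ± 7.76 and 51.9 ± 5.37. At all 3 the SD was under 12% of the mean in pro17 and over 26% in both other groups.

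A pro level below that of M82 was found at 8 more. Solyc07g005190 read 130, 130 and 120 in M82, 95.9, 119 and 87.8 in pro, and 227, 211 and 244 in pro17. Solyc11g005430 read 92.5, 77.5 and 61.8 in M82, 61.0, 57.3 and 53.8 in pro, and 162, 148 and 146 in pro17. These are the other genes of the set at which the 3 groups did not overlap. Solyc12g088050 stood at 79.5 ± 6.61 in M82, 62.4 ± 11.8 in pro and 140 ± 7.96 in pro17, and Solyc04g008430 at 140 ± 10.4, 117 ± 24.2 and 249 ± 14.6. Solyc11g006740 stood at 104 ± 22.7, 80.4 ± 18.0 and 250.4 ± 51.9, and Solyc09g089680 at 35.8 ± 7.36, 27.8 ± 10.2 and 102 ± 26.4. The pro values overlapped those of M82 at each of these. Solyc05g055540 read 32.0, 28.5 and 40.6 in M82, 37.0, 16.8 and 15.2 in pro, and 78.6, 81.8 and 78.4 in pro17, with the pro libraries 2 and 3 below every M82 value. At Solyc11g005280, with the lowest ratio of pro to M82, the values were 76.5, 55.0 and 40.6 in M82, 52.0, 33.6 and 30.5 in pro, and 201.4, 128 and 154 in pro17.

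A pro level above that of M82 was less common in the set. At Solyc06g035810, which had the highest ratio of pro to M82, the values were 28.6, 20.6 and 33.2 in M82, 29.0, 55.4 and 35.0 in pro, and 118, 113 and 84.5 in pro17. Solyc04g009860 had the widest M82 values of the set, at 2.28, 9.81 and 26.8, beside 19.99, 5.93 and 22.4 in pro and 67.1, 47.6 and 62.8 in pro17. M82 and pro overlapped at both. Solyc04g058110 stood at 74.7 ± 26.2 in M82, 85.0 ± 2.67 in pro and 192 ± 31.4 in pro17, Solyc12g010950 at 44.6 ± 8.63, 52.1 ± 17.5 and 131 ± 11.7, and Solyc10g018150 at 17.1 ± 4.11, 21.2 ± 10.7 and 54.9 ± 1.52. In the lowest pro17 library, each gene of the set rested on at least 38 reads.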

How the data were processed

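The authors' deposited table holds, per the file headers, normalized counts for 9 libraries, here a signal of reads divided by one factor per library and rounded to 2 decimals, and their log2 fold changes and adjusted p-values for 3 comparisons. Of these, only pro17 against pro is used, since the fold changes of the other comparisons disagree with the counts of their own rows at many called genes. Cutadapt, HTSeq, DESeq2 and STAR 2.4.2a are named, per the submitters' processing notes, and for the build, annotation and strand setting these sources give nothing. Groups follow the description and genotype labels; the titles of pro17 libraries 2 and 3 carry other numbers after the delta sign. Within 0.006, 100.0% of values in each library were whole multiples of one step, which gave back the reads. At pro library 1 this step is just under 1.

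The members, the marker and hormone lists and the tests were chosen with earlier results of these data known. Limma 3.58.1 (R 4.3.3, mean-variance trend) was fitted to log2 of the normalized count plus 1 over all 9 libraries, for 20951 genes kept by edgeR's expression filter, with Benjamini-Hochberg adjustment and a threshold of 0.05. EdgeR 4.0.16 and DESeq2 1.42.0 on recovered reads, other scalings, pseudocounts, filters and omissions were the alternatives. The fits were first tested on simulated data.

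Named genes are the 8 members with the most counts in pro17, the 8 with the largest margin, those without reads elsewhere, those beside a threshold, and the extremes of the pro to M82 ratio and of the pro17 spread; others are said to be named after their values were seen, or complete the account of the set. The deviations from the group means of same-numbered libraries correlated at 0.133 to 0.523 between M82 and pro, and at 0.0219 to 0.197 with pro17. These ranges overlap, so the correlations do not settle which groups the numbers pair. The numbers were taken to pair M82 with pro only, an assumption from the data and not from the labels. M82 library 1 correlated more with pro library 2 (0.259) than with pro library 1 (0.133). That pairing was used for the counts of same-numbered libraries. The replicate block was fitted over all 9 libraries and so used the numbers of pro17 too.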

Additional observations from a re-analysis of the deposited data

How the results depend on the processing

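The set of 38 genes became 151 with a margin of 5/4, 8 with a margin of 2, 18 with a ratio window from 0.8 to 5/4 and 95 without a window, which follows from the conditions themselves. It was 39 under TMM or upper-quartile scaling, with all 38 among them, 48 with a minimum mean of 20 and 29 with one of 100, and 35 to 74 when one library was left out. The limma calls of members in pro17 against M82 (6) became 30 with DESeq2, 33 with only the 6 libraries compared, 2 with the replicate block and 1 to 16 without one library. Those in pro17 against pro (29) became 19 with only the 6 libraries compared and 9 to 34 without one library; the replicate block gave 29, of which 26 were shared. Over all genes, the 25 calls in pro17 against M82 became 41 with a pseudocount of 5, 327 with DESeq2, 436 with only the 6 libraries compared, 12 with the replicate block and 1 to 199 without one library. The 712 calls in pro17 against pro became 1850 with DESeq2, 273 with only the 6 libraries compared, 890 with the replicate block and 161 to 3196 without one library. The 44 calls in pro against M82 became 183, 23 and 34 under the same settings in that order, and 25 to 766 without one library. The cause of these differences was not tested. Members called in pro against M82 were 0 under each setting except without pro library 2, so 0 to 2 without one library. That count and the members' pro to M82 differences under the 17 other settings were added after seeing the data. Of 646 such differences, 30 had the other sign, at 15 of the 38 genes, and 17 moved by more than the replicate SD. The sign of the pro17 differences is fixed by the choice of genes, and 4 of 646 against each of M82 and pro moved by more than that SD. The share of chosen genes that passed the margin in an unused pro17 library was 70.4% over the 3 libraries and 71.4% with a margin of 2. Both shares count many of the same genes in more than 1 library. Most genes that passed belong to the set and pass by its definition, so neither share adds support. Of the background genes, 0.97% to 1.5% passed the margin of 1.5 and 0.286% to 0.428% that of 2. At levels of 31 reads per group and below, counting error alone limits the ratios.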
